A study of Mus musculus with 16 samples.

Results

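The Toll-like receptor family is described here by its 10 members Tlr1, Tlr2, Tlr3, Tlr4, Tlr5, Tlr6, Tlr7, Tlr8, Tlr9 and Tlr13. They were taken by gene symbol, and all 10 were found among 48795 gene identifiers counted. The study measured RNA of liver cells sorted from mice aged 4 weeks, of strain C57BL/6 or BALB/c and either wild type or Ift88Orpk. Ift88Orpk is the Orpk allele of Ift88, an intraflagellar transport gene, and is used as a mouse model of fibrocystic disease of the liver and kidney. Every library pools the RNA of 6 to 8 mice, and the 16 libraries are 1 for each combination of 2 strains, 2 genotypes and 4 sorted populations. The populations were Ly6Chi infiltrating macrophages, Ly6Clo infiltrating macrophages, neutrophils, and cells sorted with the lectin DBA that the labels call cholangiocytes.

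Toll-like receptors are membrane proteins of the innate immune system that bind conserved microbial molecules. TLR1, TLR2, TLR4, TLR5 and TLR6 work mainly at the cell surface, where they recognise lipopeptides, lipopolysaccharide and flagellin. TLR3, TLR7, TLR8, TLR9 and TLR13 work in endosomes and recognise nucleic acids, and most of them depend on the transport protein UNC93B1. Signals pass through the adaptors MYD88 and TRIF (gene Ticam1) to NF-kB and interferon regulatory factors. In the liver, which receives blood from the gut, macrophages, neutrophils and sinusoidal endothelial cells all carry members of the family.

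Start-site sequences are shown for 4 members, Tlr5, Tlr6, Tlr8 and Tlr9, which had a window with no annotated exon in the 250 bases before the start. Neutrophil libraries lay above all others for Tlr5 and Tlr6, and also for Tlr2, Tlr4 and Tlr13, which are not shown. Ly6Chi libraries did so for Tlr8 and Tlr9, and also for Tlr7, which is not shown. Over all genes tested, neutrophil libraries did not overlap with those of Ly6Chi cells for 44.9%, Ly6Clo cells for 46.9% and DBA-sorted cells for 57.2%. The share was 19.3% between Ly6Chi and Ly6Clo cells. Against DBA-sorted cells it was 52.9% for Ly6Chi and 49.5% for Ly6Clo cells, all in either direction. Each stretch is the 250 bases before a RefSeq transcription start (GRCm38.p6), 5′ to 3′ on the gene's own strand, and holds no annotated exon. Capitals mark matches on either strand to 5 short motifs, namely AGGAAGT (PU.1), GAAA, any 2 bases and GAAA (interferon regulatory factors, IRF), GGGA, any 2 bases and TTCC (NF-kB), TTGCNNAA (C/EBP) and TGANTCA (AP-1).
Tlr9: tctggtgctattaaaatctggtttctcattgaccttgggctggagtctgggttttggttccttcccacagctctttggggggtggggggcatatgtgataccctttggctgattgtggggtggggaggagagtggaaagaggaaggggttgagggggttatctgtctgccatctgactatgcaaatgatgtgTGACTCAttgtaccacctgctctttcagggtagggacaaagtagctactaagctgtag
Tlr8: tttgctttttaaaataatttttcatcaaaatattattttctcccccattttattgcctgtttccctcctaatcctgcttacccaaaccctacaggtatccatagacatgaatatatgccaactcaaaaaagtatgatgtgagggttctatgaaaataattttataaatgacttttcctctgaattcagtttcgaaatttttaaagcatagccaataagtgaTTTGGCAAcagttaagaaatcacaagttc
Tlr6: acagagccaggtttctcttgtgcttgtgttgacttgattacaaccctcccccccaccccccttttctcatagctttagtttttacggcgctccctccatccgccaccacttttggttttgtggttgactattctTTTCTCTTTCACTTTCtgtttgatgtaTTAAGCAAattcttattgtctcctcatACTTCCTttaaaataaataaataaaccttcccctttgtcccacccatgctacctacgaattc
Tlr5: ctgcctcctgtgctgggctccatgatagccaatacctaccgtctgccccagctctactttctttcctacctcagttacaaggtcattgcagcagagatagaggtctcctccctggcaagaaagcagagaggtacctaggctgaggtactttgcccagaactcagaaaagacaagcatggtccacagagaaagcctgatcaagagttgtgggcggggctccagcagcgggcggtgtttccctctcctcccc
The Tlr9 stretch (chr9:106222348-106222597, plus strand) held TGACTCA, whose first base lay 58 bases before the start, and TGANTCA was found in 6.73% of 32536 such windows over all genes. The Tlr8 stretch (chrX:167264330-167264579, minus strand) held 1 C/EBP match, and TTGCNNAA was in 9.57% of windows. The Tlr6 stretch shown (chr5:64959167-64959416, minus strand) held 2 overlapping IRF matches, a motif in 2.98% of windows, with 1 C/EBP match and 1 match to AGGAAGT, in 7.7% of windows. Another Tlr6 window (chr5:64959999-64960298), which spans the annotated 5′ end of the gene, held no match to the 5 motifs and is not shown. None of these letters was found in the Tlr5 stretch (chr1:182954538-182954787, plus strand). Of 10 windows of 8 members, 1 held GGGA, any 2 bases and TTCC, that of Tlr3, against 1.21% of all windows. Other spellings of the NF-kB motif were not searched, so a window without these letters, such as that of Tlr2, is not shown to lack it. A match describes letters in a window and is not a binding site.

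The libraries held 10170795 to 26093556 counts in genes, and levels are given as CPM, the counts scaled to a library of fixed size, with TMM factors. Sinusoidal endothelial markers (7 genes, among them Stab2 and Kdr) summed to 9278 to 14300 CPM in the DBA-sorted libraries, and 7 cholangiocyte markers (among them Krt7 and Krt19) to 519 to 1067 CPM. The cholangiocyte sum reached at most 103 CPM in the leukocyte libraries, so these markers were enriched in DBA-sorted cells. Stellate cell and fibroblast markers summed to 758 to 3900 CPM there. Hepatocyte markers summed to 1781 to 3783 CPM, beside 1997 to 4349 CPM in neutrophil libraries. The measured markers therefore go against a label of cholangiocytes alone, and these cells are called DBA-sorted here. Neutrophil markers summed to 16670 to 25130 CPM in neutrophils and to at most 1326 CPM elsewhere, and Ly6Chi monocyte markers to 3969 to 5355 CPM in Ly6Chi cells and 901 to 1616 CPM in Ly6Clo cells. The labels describe equal numbers of each sex per pool, but Xist ranged from 115 to 1159 CPM over the 16 libraries. Ift88 itself was at 1.41 to 4.34 CPM in wild type and 3.81 to 8.38 CPM in Ift88Orpk leukocytes, higher in Ift88Orpk in 6 of 6 pairs, and at 8.94 and 7.86 CPM in C57BL/6 and 8.6 and 4.62 CPM in BALB/c DBA-sorted cells (wild type, then Ift88Orpk). A count over the whole gene does not test for the Orpk allele. In bulk samples, fewer cells of a type and less RNA per cell cannot be told apart.

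The family was most abundant in neutrophils and scarce in DBA-sorted cells. Summed per kilobase of exon, so that members can be compared, the 10 genes reached 583 ± 197 CPM per kb in neutrophils (mean ± SD, n = 4 libraries), 389 ± 65.5 in Ly6Chi cells, 234 ± 24 in Ly6Clo cells and 35.1 ± 4.19 in DBA-sorted cells. Neutrophil libraries ranged from 433 to 868 CPM per kb and Ly6Chi libraries from 348 to 486, so these populations overlapped. Ly6Clo libraries lay between 200 and 253 CPM per kb and DBA-sorted libraries between 31.5 and 41.2, apart from each other and from the other two.

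The populations also differed in which members made up the sum. In neutrophils Tlr2 gave 42.1 ± 2.38% and Tlr13 27.5 ± 2.85% of the family's CPM per kb. In Ly6Chi cells Tlr2 gave 23.6 ± 6.74%, Tlr13 22.6 ± 3.04%, Tlr7 18 ± 5.02% and Tlr8 11.3 ± 1.23%. The Ly6Clo composition lay close to this, with 20.9 ± 6.67% Tlr2, 23.6 ± 5.15% Tlr13 and 16.7 ± 3.88% Tlr7. In DBA-sorted cells Tlr2 (27.4 ± 7.35%), Tlr4 (26.2 ± 5.91%) and Tlr3 (25.6 ± 9.21%) lay within their spread of each other, and no other member passed 4.48%. With coding length in place of exon length Tlr4 gave 33.5% of the DBA-sorted sum, so the order of these 3 depends on the length used. Tlr3 made up 0.263% of the sum in neutrophils and 0.374% in Ly6Chi cells.

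**Figure D1:**
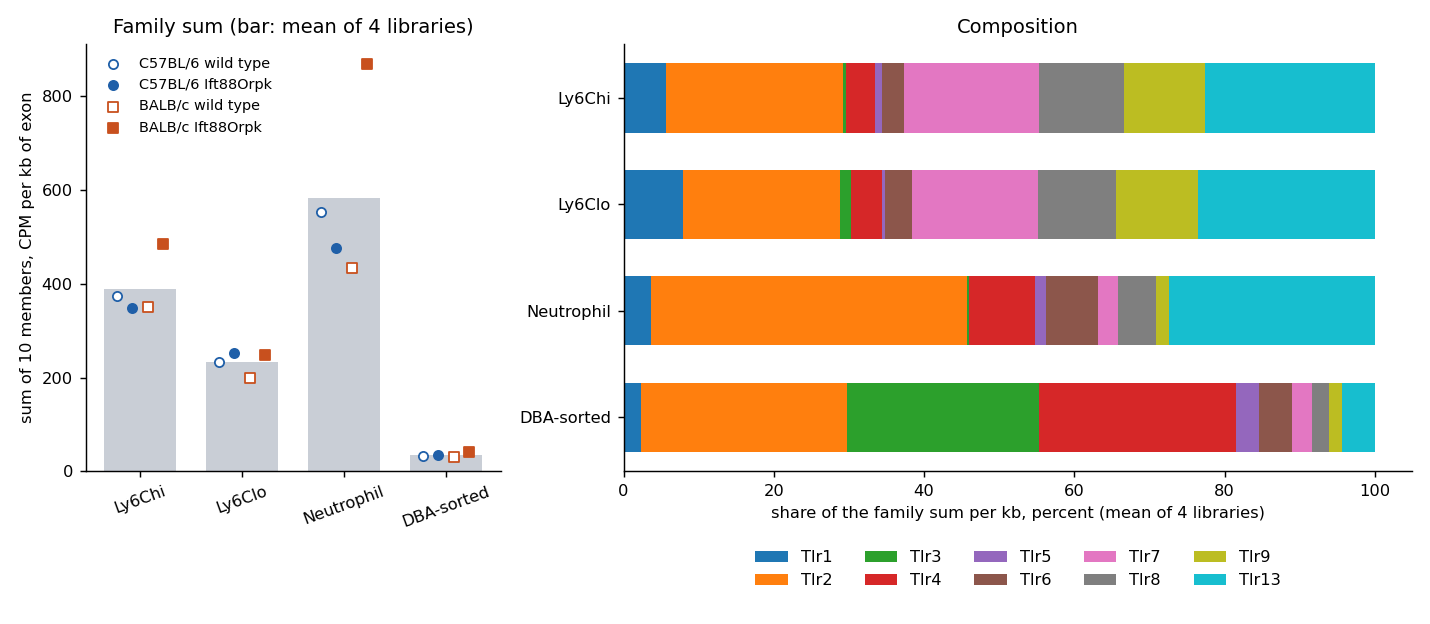
Left, the summed level of the 10 members in CPM per kilobase of exon for each library (symbols) with the mean of 4 libraries per population (bars). Right, the mean share of each member in that sum, in percent. Tlr2 takes 42.1% of the neutrophil sum, and Tlr3 takes 25.6% of the DBA-sorted sum against 1.41% or less in the 3 leukocyte populations.

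Levels in the single libraries are given in CPM, in the order C57BL/6 wild type, C57BL/6 Ift88Orpk, BALB/c wild type and BALB/c Ift88Orpk. Tlr2 (ENSMUSG00000027995, chr3:83836272-83841767, minus strand) encodes the lipopeptide receptor that pairs with TLR1 or TLR6. It stood at 683, 588, 534 and 1195 CPM in neutrophils, at 218, 230, 205 and 491 CPM in Ly6Chi cells, at 113, 145, 108 and 229 CPM in Ly6Clo cells and at 24.8, 21.8, 36.2 and 32 CPM in DBA-sorted cells. In each of the 3 leukocyte populations the BALB/c Ift88Orpk library was the highest, and neutrophils lay above all other libraries. Tlr4 (ENSMUSG00000039005, chr4:66827584-66930284, plus strand), the lipopolysaccharide receptor, stood at 181, 184, 251 and 561 CPM in neutrophils, at 68.3, 75.2, 64.5 and 135 CPM in Ly6Chi cells, at 43.3, 61.9, 47 and 65.5 CPM in Ly6Clo cells and at 52.3, 63.8, 38.1 and 48.6 CPM in DBA-sorted cells. Its DBA-sorted and Ly6Clo libraries overlapped, and the BALB/c Ift88Orpk library was again the highest in each leukocyte population.

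Tlr1 (ENSMUSG00000044827, chr5:64924679-64933563, minus strand) spread most between the neutrophil libraries, with 25.9, 74.2, 22.3 and 205 CPM. Its Ly6Chi values were 48, 62.4, 62.8 and 131 CPM and its Ly6Clo values 43.4, 58.2, 57.3 and 89.7 CPM, so the 3 leukocyte populations overlapped, and DBA-sorted cells held 0.888 to 5.9 CPM. Tlr6 (ENSMUSG00000051498, chr5:64952031-64960097, minus strand), the other partner of TLR2, stood at 130, 126, 125 and 212 CPM in neutrophils. That was above all Ly6Chi (33.1 to 50.9 CPM) and Ly6Clo libraries (27 to 35.1 CPM). Tlr1 and Tlr6 are neighbours of similar sequence: 10.6% of the 75-base words in Tlr1 transcripts and 9.25% of those in Tlr6 transcripts also occur in another gene, so part of their reads is uncertain. Tlr5 (ENSMUSG00000079164, chr1:182954788-182976044, plus strand), the flagellin receptor, had the lowest level per kilobase of the surface members in each leukocyte population. It was at 29.7 to 50.9 CPM in neutrophils, 9.6 to 25.4 CPM in Ly6Chi cells, 2.25 to 7.44 CPM in Ly6Clo cells and 1.2 to 8.68 CPM in DBA-sorted cells.

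Among the endosomal members Tlr3 alone was highest in the DBA-sorted cells. Tlr3 (ENSMUSG00000031639, chr8:45395665-45411080, minus strand), a receptor for double-stranded RNA that signals through TRIF, stood there at 58.3, 59.5, 32.5 and 33.7 CPM, above every leukocyte library. It stood at 16.9, 17.3, 14.9 and 19.2 CPM in Ly6Clo cells, 6.45, 5.69, 8.36 and 9.85 CPM in Ly6Chi cells and 5.98, 3.75, 14.5 and 2.37 CPM in neutrophils. The Ly6Chi and Ly6Clo libraries did not overlap, while the neutrophil libraries spread across the Ly6Chi range. In the BALB/c wild type neutrophil library, the one with 14.5 CPM of Tlr3, sinusoidal endothelial markers summed to 2086 CPM (492 to 1267 CPM in the other 3) and Kupffer cell markers to 679 CPM (189 to 461 CPM). Their part in that value was not tested. The antisense gene Gm45542 shares 381 exon bases with Tlr3 and held 0 counts in all 16 libraries. The strand setting of the counting is not given in the sources used here.

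Tlr7 (ENSMUSG00000044583, chrX:167304929-167330558, minus strand) and Tlr8 (ENSMUSG00000040522, chrX:167242696-167264329, minus strand) are X-linked neighbours that encode receptors for single-stranded RNA. Tlr7 stood at 338, 294, 259 and 216 CPM in Ly6Chi cells, 192, 181, 147 and 112 CPM in Ly6Clo cells, 88.5, 73.9, 37.2 and 34.1 CPM in neutrophils and 1.46 to 8.49 CPM in DBA-sorted cells. Tlr8 stood at 150, 125, 163 and 191 CPM in Ly6Chi cells, 80.2 to 94.1 CPM in Ly6Clo cells and 87.1 to 115 CPM in neutrophils. For Tlr7 no population overlapped another, and for Tlr8 the Ly6Clo and neutrophil libraries did. Tlr9 (ENSMUSG00000045322, chr9:106222598-106226883, plus strand), the receptor for CpG DNA, stood at 140, 125, 167 and 145 CPM in Ly6Chi cells, 80.8, 104, 79.7 and 87.1 CPM in Ly6Clo cells and 61.8, 34.9, 12.7 and 16.1 CPM in neutrophils. Tlr13 (ENSMUSG00000033777, chrX:106143204-106160493, plus strand), which recognises bacterial ribosomal RNA in the mouse, stood at 723, 561, 531 and 882 CPM in neutrophils, 418, 347, 337 and 390 CPM in Ly6Chi cells and 297, 277, 186 and 188 CPM in Ly6Clo cells. Its 4 populations did not overlap, with 2.09 to 14.6 CPM in DBA-sorted cells. The order of levels of a gene across populations thus differed between Tlr7 and Tlr9, highest in Ly6Chi and lower in neutrophils, and Tlr13, highest in neutrophils.

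**Figure D2:**
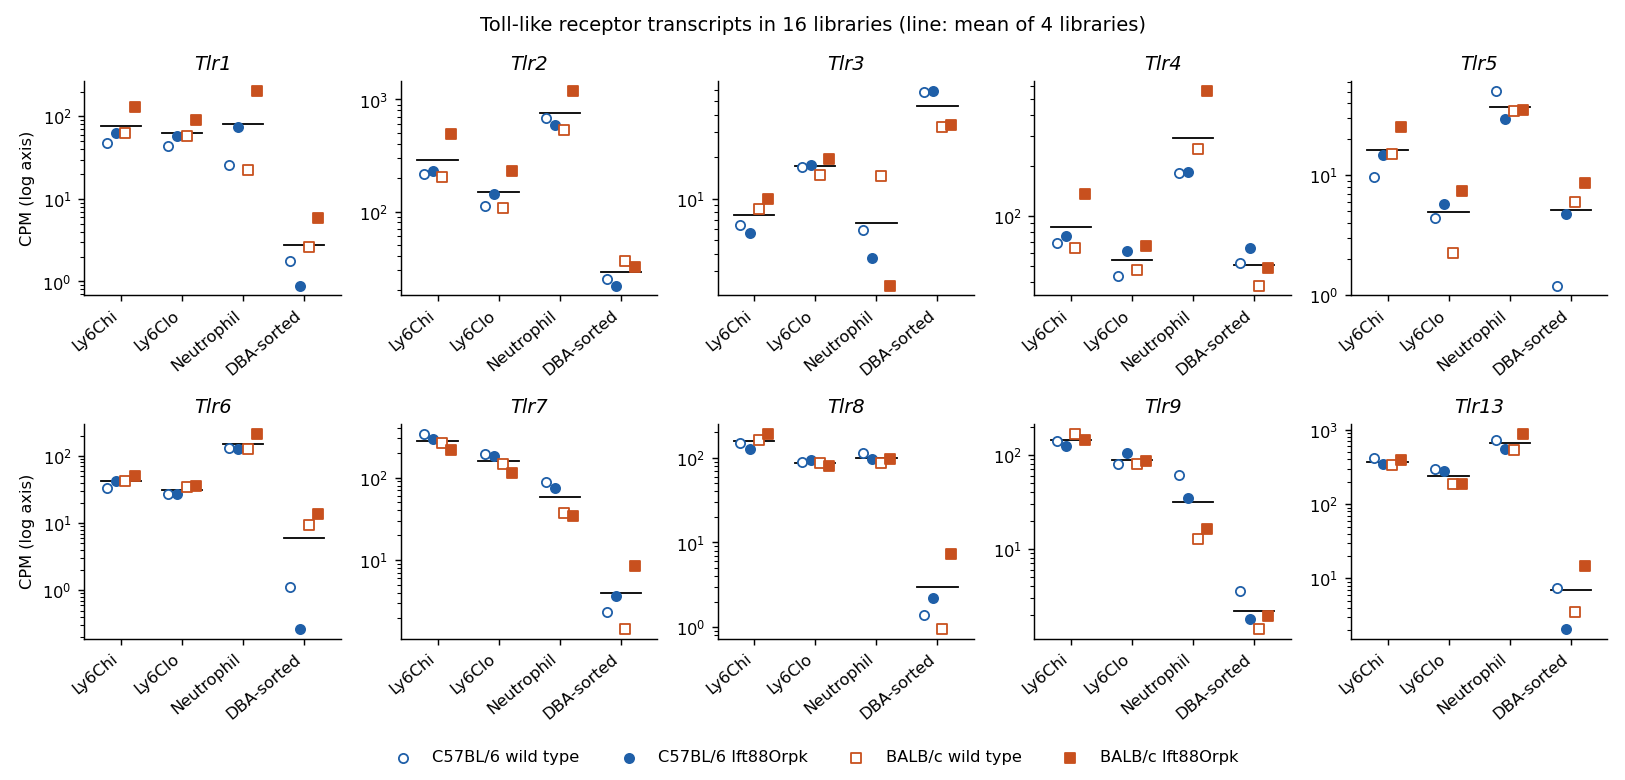
CPM of each member (log axis, scale set per panel) in the 16 libraries, by population, with strain by colour and shape and Ift88Orpk filled. Horizontal lines are means of 4 libraries. Tlr3 is highest in the DBA-sorted cells, Tlr7 and Tlr9 fall from Ly6Chi to neutrophils, and Tlr2 and Tlr4 have their highest leukocyte values in the BALB/c Ift88Orpk libraries.

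Ly6Chi and Ly6Clo macrophages were compared over their 8 libraries, with the 4 strain and genotype combinations as blocks. With 1 library per group these combinations serve as replicates, and p-values measure the spread between them, not between mice. Of the 10 members 8 were higher in Ly6Chi cells and Tlr3 was lower, where 12.3% of all 16664 genes tested were called higher and 12.2% lower (24.5% in all; edgeR quasi-likelihood test, Benjamini-Hochberg adjusted p under 0.05 over all genes). The flagellin receptor Tlr5 differed most, by 1.73 ± 0.25 log2 units (± SE, adjusted p = 0.00165), and was higher in 4 of 4 combinations. The log2 fold changes were 0.90 ± 0.08 for Tlr2 (adjusted p = 0.000191), 0.60 ± 0.12 for Tlr4 (0.00776) and 0.45 ± 0.10 for Tlr6 (0.0141). The endosomal Tlr7, Tlr8, Tlr9 and Tlr13 were higher by 0.67 to 0.83 log2 units, with adjusted p from 0.000156 to 0.00319. Tlr3 was lower by -1.20 ± 0.17 log2 units (adjusted p = 0.00146). Tlr1 was at 0.22 ± 0.10 log2 units with adjusted p = 0.129. The median over the 10 members was 0.69 log2 units and over all genes tested -0.01.

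The libraries of the 2 macrophage types did not overlap for 6 of 10 members, against 19.3% of all genes tested. Those of Tlr1, Tlr2, Tlr4 and Tlr6 overlapped, although each of these genes was higher in the Ly6Chi library in 4 of 4 combinations. Conventional dendritic cell markers summed to 249 to 634 CPM in Ly6Clo and 12.2 to 92.1 CPM in Ly6Chi libraries (6 and 5 of 6 markers at a mean of at least 1 CPM), and T and NK cell markers to 114 to 779 against 3.49 to 110 CPM. Their part in the members' differences, Tlr3 included, was not tested. Without the C57BL/6 Ift88Orpk libraries Tlr6 was no longer called (adjusted p = 0.0745). Without the blocks Tlr2, Tlr4 and Tlr6 missed the threshold (adjusted p = 0.118, 0.144 and 0.116), and in a fit of all 16 libraries 2 members, Tlr2 and Tlr5, stayed called (0.0157 and 0.0242). Over the 9 alternatives adjusted p reached 0.0244 for Tlr5, 0.118 for Tlr2 and 0.751 for Tlr6.

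Neutrophils carried more of 4 surface receptors and Tlr13 than both macrophage types, and less Tlr7 and Tlr9. Against Ly6Chi cells 5 members were higher and 3 lower in neutrophils, where 47.5% of 15931 genes tested were called, 23.3% higher and 24.1% lower. Tlr6 was higher by 1.80 ± 0.17 log2 units (adjusted p = 0.000112), Tlr4 by 1.70 ± 0.20 (0.000332), Tlr2 by 1.44 ± 0.16 (0.000263), Tlr5 by 1.27 ± 0.30 (0.00863) and Tlr13 by 0.85 ± 0.17 (0.00386). Tlr9 was lower by -2.45 ± 0.39 log2 units (adjusted p = 0.00149), Tlr7 by -2.33 ± 0.19 (7.37e-05) and Tlr8 by -0.64 ± 0.16 (0.0125). These 8 members were the ones whose libraries did not overlap, against 44.9% of all genes tested. Tlr8 missed the threshold without the BALB/c Ift88Orpk libraries (adjusted p = 0.05003) and without the BALB/c wild type libraries (0.0522), within a range of 0.00401 to 0.156 over 9 alternatives. In the fit of all 16 libraries Tlr13 was at 0.82 log2 units and missed the threshold too (adjusted p = 0.0718, range 2.31e-06 to 0.0718). Tlr1 was at -0.34 ± 0.33 (adjusted p = 0.419) and Tlr3 at -0.43 ± 0.47 log2 units (0.465).

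Against Ly6Clo cells the same 5 members were higher in neutrophils (49.6% of 16631 genes tested were called, 23.9% higher and 25.7% lower). The log2 differences were 3.01 ± 0.34 for Tlr5, 2.35 ± 0.18 for Tlr2, 2.31 ± 0.26 for Tlr4, 2.26 ± 0.17 for Tlr6 and 1.53 ± 0.23 for Tlr13, with adjusted p of 0.000846 or less. Tlr9 (-1.75 ± 0.35, adjusted p = 0.00349), Tlr7 (-1.51 ± 0.18, 0.000302) and Tlr3 (-1.65 ± 0.47, 0.0178) were lower. Both comparisons use the same neutrophil libraries. Tlr1 and, against Ly6Clo cells, Tlr8 passed no threshold, at -0.12 ± 0.38 (adjusted p = 0.809) and 0.19 ± 0.15 log2 units (0.315). The Tlr3 call was lost without the BALB/c Ift88Orpk libraries (adjusted p = 0.0662) and without the C57BL/6 Ift88Orpk libraries (0.0616), in a range from 0.000506 to 0.0662 over 9 alternatives. Neutrophil libraries held 1597 to 3845 CPM of Ly6Chi monocyte markers, with all 7 markers present. Tlr7 and Tlr9 were lowest in the BALB/c pair of these libraries, which had 1597 and 2714 CPM, and the part of such RNA in the neutrophil values was not tested.

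**Figure D3:**
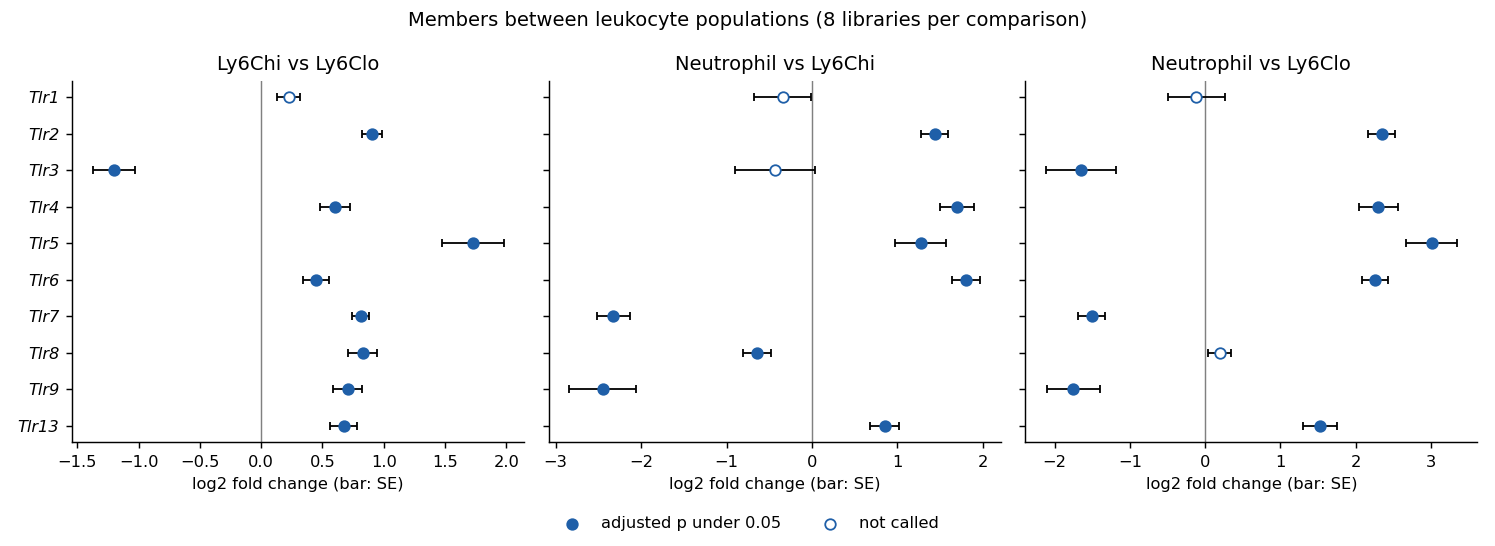
Log2 fold changes of the 10 members between leukocyte populations, with standard errors from edgeR's quasi-likelihood test. Each panel has its own scale, and filled points passed an adjusted p of 0.05. Tlr7 and Tlr9 lie on opposite sides of 0 in the comparison of macrophage types and in both comparisons with neutrophils, whereas Tlr2, Tlr4, Tlr5, Tlr6 and Tlr13 stay above 0.

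Compared with DBA-sorted cells, 9 members were higher in Ly6Chi cells and in neutrophils and 7 in Ly6Clo cells, and Tlr3 was lower in all 3. Of all genes tested 51.4% were called in Ly6Chi cells, 54% in neutrophils and 46.7% in Ly6Clo cells, with 23.9%, 26% and 21.8% higher and 27.5%, 27.9% and 24.8% lower. Tlr3 was lower by -2.60 ± 0.32 log2 units in Ly6Chi cells (adjusted p = 0.000494), -2.92 ± 0.51 in neutrophils (0.00211) and -1.43 ± 0.21 in Ly6Clo cells (0.0018). Differences were widest for Tlr13 in neutrophils (7.08 ± 0.43 log2 units, adjusted p = 1.83e-05) and for Tlr7 (6.32 ± 0.52, 6.23e-05), Tlr9 (6.08 ± 0.29, 9.5e-06) and Tlr13 (6.05 ± 0.47, 4.82e-05) in Ly6Chi cells. In Ly6Chi cells, Ly6Clo cells and neutrophils Tlr1 was higher by 4.90, 4.63 and 4.75 log2 units, Tlr2 by 3.22, 2.28 and 4.82 and Tlr8 by 6.025, 5.196 and 5.60, with adjusted p of 0.0004 or less. In the same order Tlr6 was higher by 3.6, 3.18 and 5.61 (0.0102, 0.0238 and 0.00103), and Tlr5 by 1.80 in Ly6Chi cells (0.00336) and 3.17 in neutrophils (0.00186). Tlr4 was higher by 2.55 ± 0.36 in neutrophils (adjusted p = 0.000733) and 0.68 ± 0.22 in Ly6Chi cells (0.0346). In Ly6Clo cells Tlr4 and Tlr5 were at 0.05 ± 0.16 (adjusted p = 0.815) and 0.04 ± 0.57 log2 units (0.961). Against Ly6Chi cells Tlr4 missed the threshold without the BALB/c wild type libraries (adjusted p = 0.0929) and without the C57BL/6 wild type libraries (0.0565), and Tlr6 without the latter (0.0589 against Ly6Chi, 0.0777 against Ly6Clo cells). The ranges over 9 alternatives were 0.0135 to 0.0929, 6.51e-07 to 0.0589 and 2.12e-05 to 0.0777.

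Genes that serve the receptors were followed in 9 lists of 74 genes. Between macrophage types 27 of 73 tested were higher and 9 lower in Ly6Chi cells, where 12.3% of all genes were called higher and 12.2% lower. The co-receptor Cd14, which hands lipopolysaccharide to TLR4, was higher by 1.43 ± 0.20 log2 units (311 ± 284 against 130 ± 135 CPM, mean ± SD, n = 4, adjusted p = 0.00129), and its partner Ly96 (MD-2) was at 0.65 ± 0.29 (adjusted p = 0.141). The adaptors Myd88 (0.92 ± 0.08, adjusted p = 0.000141), Ticam2 (0.53 ± 0.09, 0.00314), Tirap (0.53 ± 0.12, 0.0124) and Ticam1 (0.41 ± 0.10, 0.0199) were higher, and Pik3ap1 was lower. Of 6 chaperone and transport genes 3 were higher, among them Unc93b1 (0.49 ± 0.08, adjusted p = 0.00283). Of 9 endosomal proteases and nucleases 5 were higher and none lower, led by the protease gene Ctss (0.79 ± 0.07, adjusted p = 0.000215). Of 9 inhibitors 4 were lower, among them Sigirr (-1.10 ± 0.14, adjusted p = 0.00103) and Tnfaip3 (-0.52 ± 0.10, 0.00713), and Irak3 was higher. The other mouse receptors Tlr11 and Tlr12, which recognise profilin of apicomplexan parasites, were both lower, by -1.78 ± 0.17 (adjusted p = 0.000243) and -1.63 ± 0.39 log2 units (0.0157). Tlr11 stood at 16.3 to 51.3 CPM in Ly6Clo cells, beside the dendritic cell markers given above.

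In neutrophils against Ly6Chi cells 26 of 71 pathway genes tested were higher and 22 lower, where 23.3% of all genes were called higher and 24.1% lower. Of 11 target genes of the pathway tested, 8 were higher and none lower, led by Ptgs2 (4.98 ± 0.31 log2 units, adjusted p = 2.6e-05), the chemokine Cxcl2 (5.21 ± 0.33, 2.9e-05) and the cytokine Il1b (4.43 ± 0.33, 4.7e-05). The median over that list was 2.66 log2 units and over all genes tested -0.09. The feedback inhibitors Tnfaip3 (3.21 ± 0.23, adjusted p = 4.4e-05) and Nfkbia (2.94 ± 0.22, 5.2e-05) were higher too. Adaptors parted: Tirap (1.82 ± 0.17, adjusted p = 0.000119) and Myd88 (1.01 ± 0.17, 0.00173) were higher and the TRIF-branch adaptors Ticam2 (-2.23 ± 0.28, 0.000491) and Ticam1 (-1.83 ± 0.29, 0.00138) lower. Among the partners of endosomal receptors, 5 of 9 proteases and nucleases were lower, led by Ctss (-2.29 ± 0.27, adjusted p = 0.000401) and the nuclease gene Pld4 (-2.65 ± 0.42, 0.00143). The transporter gene Slc15a3 was higher (2.08 ± 0.18, adjusted p = 8.6e-05) and Slc15a4 lower (-1.24 ± 0.17, 0.000851). Unc93b1 was at -0.48 ± 0.21 (adjusted p = 0.0875). Cd14 was higher by 2.38 ± 0.21 (adjusted p = 0.000102), whereas Cd180 and Ly86, which together form a receptor related to TLR4 and MD-2, were lower by -2.21 ± 0.29 and -2.56 ± 0.45 (0.0006 and 0.00234).

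Ift88Orpk was compared with wild type within each population, the 2 strains serving as replicates in a fit of all 16 libraries. With edgeR's quasi-likelihood test 0% of 21534 genes, and 0 of 10 members, were called in any of the 4 populations. Any difference between the strains in the genotype effect counts as spread in this fit. A lack of calls therefore does not show a lack of effect. Unadjusted p was under 0.05 for 348 to 1140 genes per population, and for 3 members in DBA-sorted cells, 2 in neutrophils and 0 in either macrophage type. DESeq2 called 83 genes in DBA-sorted cells, 3 in Ly6Chi cells, 11 in Ly6Clo cells and 26 in neutrophils. Tlr1 in neutrophils was the 1 member among them (adjusted p = 0.035 with DESeq2 and 1 with edgeR, range 0.035 to 1 over 8 alternatives). Its libraries went from 25.9 to 74.2 CPM in C57BL/6 (ratio 2.87, 95% counting interval 2.47 to 3.35) and from 22.3 to 205 CPM in BALB/c (9.19, 8.26 to 10.2). That is 2.39 ± 0.53 log2 units, higher in 2 of 2 strains. Tlr3 in neutrophils went the other way in both strains, with ratios of 0.626 (0.42 to 0.937) and 0.164 (0.105 to 0.245), and was at -1.61 ± 0.44 log2 units (unadjusted p = 0.00586, adjusted p = 1). Counting intervals cover the sampling of reads and not the difference between pools.

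In DBA-sorted cells Tlr1, Tlr5, Tlr6, Tlr7, Tlr8 and Tlr13 had their highest level in the BALB/c Ift88Orpk library. How many of all genes were highest there was not counted. Tlr9 was highest in C57BL/6 wild type (3.59 against 1.93 CPM in BALB/c Ift88Orpk) and Tlr2 in BALB/c wild type. Tlr7 was at 2.33 and 3.69 CPM in C57BL/6 and 1.46 and 8.49 CPM in BALB/c (wild type, then Ift88Orpk), and Tlr8 at 1.39 and 2.22, then 0.955 and 7.41 CPM. Tlr13 was at 7.37 and 2.09, then 3.57 and 14.6 CPM. Neutrophil markers summed to 170 CPM in that BALB/c Ift88Orpk library and to 7.54 to 17.6 CPM in the other 3, and Ly6Chi monocyte markers to 483 CPM against 66.2 to 122 CPM. Stellate cell and fibroblast markers summed to 3900 CPM in that library against 758 to 1752 CPM, and sinusoidal endothelial markers to 9278 against 11980 to 14300 CPM. The part of leukocyte RNA, or of the other cell types, in the members' values was not tested. In the fit of all 16 libraries Tlr7 was at 1.60 ± 0.40 and Tlr8 at 1.85 ± 0.48 log2 units (edgeR, adjusted p = 0.642 and 0.678). With either C57BL/6 library left out, the contrast rested on the BALB/c pair alone, 1 library per genotype. Both of these fits are thus the same comparison, with Tlr7 at 2.53 and Tlr8 at 2.94 log2 units. That pair includes the BALB/c Ift88Orpk library with the raised leukocyte markers.

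Over the leukocytes, Tlr2 and Tlr4 were higher in Ift88Orpk than in wild type mice of the BALB/c strain. Here the 3 leukocyte populations served as replicates, and since they may come from the same mice, p-values measure the spread between populations only. In BALB/c 2 of 10 members were called, both higher, where 3.34% of 19418 genes tested were called, 1.45% higher and 1.89% lower. Tlr2 was at 205 and 491 CPM in Ly6Chi cells, 108 and 229 CPM in Ly6Clo cells and 534 and 1195 CPM in neutrophils (wild type, then Ift88Orpk), with ratios of 2.4, 2.13 and 2.24. This was 1.15 ± 0.14 log2 units (adjusted p = 0.00168), higher in 3 of 3 populations. Tlr4 had ratios of 2.1, 1.39 and 2.24 in the same order and was higher by 0.88 ± 0.16 log2 units (adjusted p = 0.0112). The median over the members was 0.32 log2 units and over all genes -0.01. Tlr1 had ratios of 2.08, 1.57 and 9.19, was at 1.57 ± 0.40 log2 units, and missed the threshold (adjusted p = 0.0623, range 6.45e-15 to 0.0782 over 6 alternatives, 4 of which called it). The other members were not called, with Tlr5 at 0.76 ± 0.34 log2 units (adjusted p = 0.353, range 0.0318 to 0.76), Tlr6 at 0.34 ± 0.16, Tlr13 at 0.30 ± 0.15, Tlr8 at 0.06 ± 0.13, Tlr9 at 0.06 ± 0.20 and Tlr3 at -0.54 ± 0.50.

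In C57BL/6 leukocytes 0 of 10 members were called (edgeR; 0.0566% of genes were called, 0.0463% higher and 0.0103% lower, with 0 members at an unadjusted p under 0.05 and 0 by DESeq2). Without a filter on low counts Tlr1 was called there (0.76 log2 units, adjusted p = 0.00351, range 0.00351 to 1 over 6 alternatives). Ratios of Tlr2 were 1.05, 1.28 and 0.862 in Ly6Chi cells, Ly6Clo cells and neutrophils, or 0.08 ± 0.14 log2 units (adjusted p = 1). Those of Tlr4 were 1.1, 1.43 and 1.02 in the same order, or 0.24 ± 0.16 log2 units. Its ratio in Ly6Clo cells was thus near the 1.39 of BALB/c. The difference between the strains' effects was called for 1 member, Tlr2 (1.07 ± 0.20 log2 units, adjusted p = 0.0249), where 1.33% of genes were called, 0.129% higher and 1.21% lower. For Tlr4 the difference was 0.65 ± 0.22 (adjusted p = 0.306) and for Tlr13 0.53 ± 0.21 (0.432). Between 0 members (without the Ly6Chi libraries) and 4 members (without the neutrophil libraries) were called in BALB/c when a population was left out. Without the Ly6Chi libraries Tlr2 was at 1.10 log2 units (adjusted p = 0.0544) and Tlr4 at 0.80 (0.206), and the difference for Tlr2 at 1.0006 (0.423). Without the Ly6Clo libraries that difference was at 1.23 (0.12). The adjusted p ranged over 6 alternatives from 2.18e-12 to 0.0544 for Tlr2 in BALB/c, from 6.96e-06 to 0.206 for Tlr4 and from 1.86e-05 to 0.423 for the Tlr2 difference. Neutrophil markers in the BALB/c wild type and Ift88Orpk libraries summed to 554 and 609 CPM in Ly6Chi cells and to 1326 and 637 CPM in Ly6Clo cells. In the neutrophil libraries they summed to 16670 and 25130 CPM. Ly6Chi monocyte markers summed to 3969 and 5230 CPM in Ly6Chi cells, 1044 and 1616 CPM in Ly6Clo cells and 1597 and 2714 CPM in neutrophils, higher in Ift88Orpk in all 3, and Kupffer cell markers to 76 and 30.6, 192 and 66.3, and 679 and 189 CPM. Hepatocyte markers summed to 1552 and 478 CPM, 1373 and 381 CPM, and 4349 and 1997 CPM in Ly6Chi cells, Ly6Clo cells and neutrophils, and mitochondrial genes took 6.66 and 2.98%, 4.78 and 2.64%, and 11.1 and 3.15% of gene counts. The part of these differences in the Tlr2 and Tlr4 values was not tested.

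**Figure D4:**
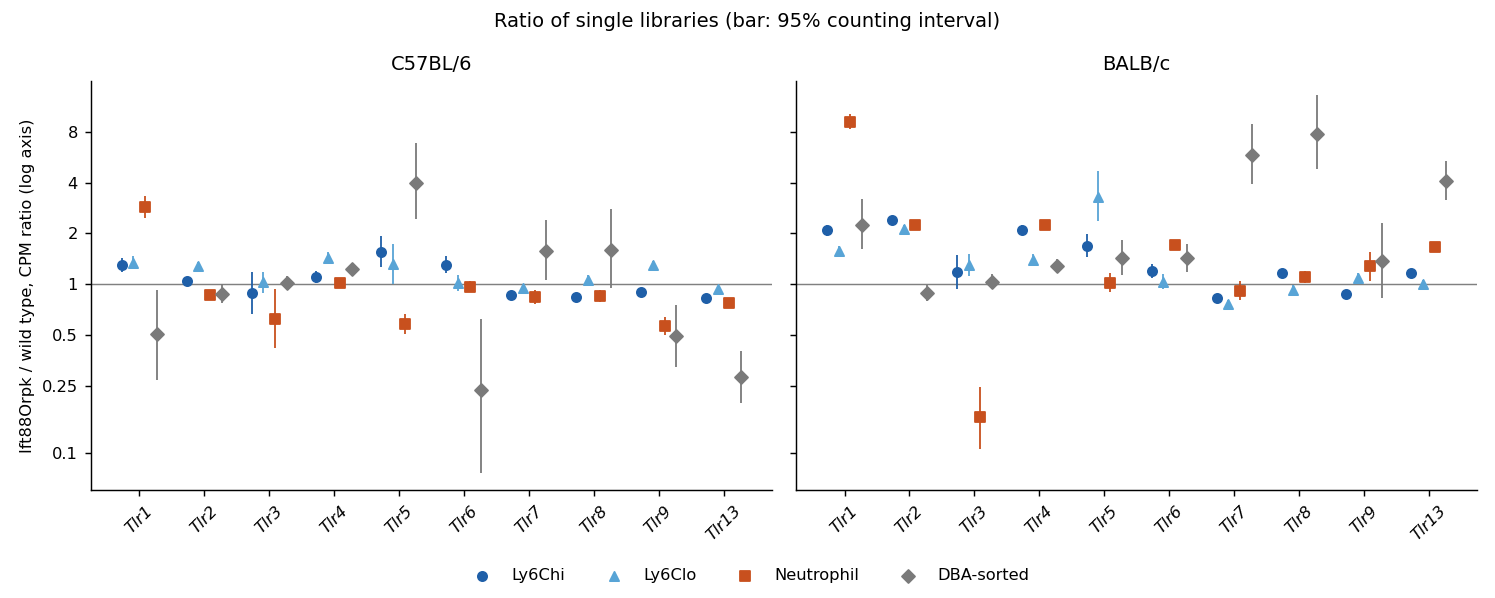
Ratio of CPM in the Ift88Orpk library to that in the wild type library (log axis) for each member, population and strain, with 95% counting intervals. In BALB/c the 3 leukocyte ratios of Tlr2 lie between 2.13 and 2.4, and in C57BL/6 between 0.862 and 1.28.

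Among the pathway genes 7 of 73 were higher and 2 lower in Ift88Orpk leukocytes of BALB/c, where 1.45% of all genes were called higher and 1.89% lower. In C57BL/6 there were 0 of 73 (edgeR, adjusted p under 0.05), where 0.0566% of all genes were called. Cd14 went from 168 to 736 CPM in Ly6Chi cells, from 81.2 to 330 CPM in Ly6Clo cells and from 619 to 2985 CPM in neutrophils of BALB/c, or 2.12 ± 0.19 log2 units (adjusted p = 0.000324), and its difference between strains was called (1.32 ± 0.26, 0.0313). In the C57BL/6 libraries Cd14 was at 149 and 192, 29.9 and 79.1, and 926 and 1420 CPM in the same order. The target genes Cxcl2 (2.15 ± 0.21, adjusted p = 0.000474) and Ptgs2 (1.16 ± 0.25, 0.0251), the kinase gene Ikbke (2.03 ± 0.32, 0.00511) and the inhibitor Tnfaip3 (1.05 ± 0.19, 0.0114) were higher. So were Slc15a3 (0.996 ± 0.15, adjusted p = 0.00409) and Ctss (0.65 ± 0.14, 0.0309). The fatty acid and lipoprotein receptor gene Cd36 (-1.25 ± 0.28, adjusted p = 0.0313) and Tlr11 (-1.52 ± 0.26, 0.00922) were lower. Tlr11 fell from 16.6 to 6.63 CPM in Ly6Chi cells and from 51.3 to 16.3 CPM in Ly6Clo cells, where conventional dendritic cell markers summed to 48.5 and 12.2 CPM and to 542 and 249 CPM, and their part in this was not tested.

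Between the strains 1 member was called in 1 population. Tlr6 in DBA-sorted cells was higher in BALB/c (0.172% of 21534 genes were called higher and 0.125% lower), with 9.45 and 13.5 CPM in BALB/c against 1.13 and 0.267 CPM in C57BL/6 (wild type, then Ift88Orpk). These values rest on 188 and 285 counts against 18 and 6. The difference was 4.2 ± 0.54 log2 units (adjusted p = 0.022), in 2 of 2 genotypes, and the call was lost in a fit of the 4 DBA-sorted libraries alone (adjusted p = 0.0848, range 5.31e-10 to 0.0848 over 8 alternatives). The neighbouring Tlr1 was at 1.69 ± 0.59 log2 units there (adjusted p = 0.407). No member was called in Ly6Chi cells, Ly6Clo cells or neutrophils with edgeR, where 0.334%, 0.306% and 1.34% of genes were called and 0, 0 and 3 members had an unadjusted p under 0.05. In neutrophils Tlr9 was lower in BALB/c by -1.65 ± 0.37 log2 units with adjusted p = 0.0941, and Tlr7 by -1.13 ± 0.35 (0.215), both in 2 of 2 genotypes. Tlr9 was called without a filter on low counts (adjusted p = 0.0493). DESeq2 called Tlr9 (adjusted p = 0.0139, range 0.0139 to 0.3 over 8 alternatives) and Tlr4 (0.0409, range 0.0409 to 0.55). The gene Ly86 was lower in BALB/c neutrophils by -2.36 ± 0.38 (adjusted p = 0.0256). Monocyte markers summed to 3845 and 3188 CPM in the C57BL/6 neutrophil libraries and to 1597 and 2714 CPM in the BALB/c ones, and their part in these values was not tested.

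For the X-linked Tlr7, Tlr8 and Tlr13, the balance of sexes in the pools stands beside any genotype or strain value. Xist was at 569 to 1159 CPM in C57BL/6 wild type and 115 to 338 CPM in C57BL/6 Ift88Orpk libraries, and at 137 to 190 and 174 to 768 CPM in BALB/c. The sum of 4 Y-linked genes did not always mirror it. In BALB/c Ly6Chi cells Xist rose from 136.5 to 474.5 CPM and the Y-linked sum from 170.7 to 190.1 CPM. Among BALB/c Ift88Orpk libraries Xist and the Y-linked sum were at 768.4 and 140.4 CPM in Ly6Clo cells. They were at 173.5 and 435.6 CPM in neutrophils. Tlr7 was lower in Ift88Orpk in 3 of 3 leukocyte populations of each strain, with ratios from 0.766 to 0.943, and was not called (-0.17 ± 0.12 log2 units in C57BL/6, adjusted p = 1, and -0.28 ± 0.12 in BALB/c, 0.337). The part of the sex balance in these ratios was not tested.

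The genes whose levels ran most like a member's over the 16 libraries were taken by Pearson correlation of log2(CPM + 1) among 11211 genes. The libraries fall into 4 populations, which may come from the same mice, so these values are a description. Nearest to Tlr7 were Cybb, a subunit of the phagocyte oxidase (r = 0.993, Spearman rho = 0.979), Emp3 and Slc15a4, and nearest to Tlr9 were Pld4 (r = 0.992, rho = 0.971), Ctsh and Clec4a1. Tlr13 ran most like Cd53 (r = 0.996, rho = 0.979), Fgr and Nfam1, and Tlr8 like Tnfrsf1b, Prkcd and Milr1 (r = 0.989 to 0.99). For Tlr2 they were Ist1, Dclre1c and Slc15a3 (r = 0.984 to 0.988), for Tlr6 Pla2g7, Dclre1c and Ugt1a6b (r = 0.962 to 0.975) and for Tlr4 Osbpl9, Gla and Rffl (r = 0.969 to 0.976). Tlr1 ran like Tmem268 (r = 0.97) and Zc3h7a (r = 0.96), Tlr5 most like Arid5a, Slpi and Ninj1 (r = 0.924 to 0.938) and Tlr3 like Dynll2, Lclat1 and Pigg (r = 0.96 to 0.966). By rank correlation 7 of the 30 genes taken in this way were among the 3 nearest to their member, 1 of them (Ist1 for Tlr2) by a tie.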

How the data were processed

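RNA-seq libraries were made with a NEBNext kit after ribosomal RNA reduction and sequenced as paired 75-base reads, per the labels' protocols. The authors deposited raw read counts per Ensembl gene for each library. The submitters' processing notes name HTSeq-count 0.9.1, Cufflinks 2.2.1, bcl2fastq 2.18.0.12 and build GRCm38.p4, and the labels name STAR. For the aligner's version, the strand setting and the annotation used in counting, no value is given in the sources used here. The 5 summary lines were left out, so that 44.75 to 57.28% of each library's counted reads lay in genes. Of 48795 identifiers 48349 matched GENCODE M21, which gave names, coordinates and exon lengths, and promoter windows came from RefSeq. Between any 2 libraries at most 0.61% of genes with counts above 20 had equal counts.

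Counts were tested with edgeR 4.0.16 (quasi-likelihood test, TMM factors, filterByExpr, Benjamini-Hochberg adjustment over all genes tested, threshold 0.05) in R 4.3.3. The scripts were tested on simulated data. SE is the log2 fold change divided by the square root of the test's F. The 17 comparisons are the 6 population pairs (8 libraries each), genotype and strain within each of 4 populations (1 fit of 16 libraries) and genotype over 12 leukocyte libraries in each strain, with their difference. Alternatives were RLE factors, no filter, DESeq2 1.42.0, leaving out libraries, dropping the block, other sets of libraries, coding length and rank correlation. All 10 members were tested in every comparison; within a population those not called are given by counts, with values for the ones described. Pathway genes were named among the first 5 of each list by p. By likeness 3 genes were taken for each member, of which 1 gene is not reported here. Members, lists and tests were chosen with earlier results of these data known. Depth limits the precision, and counting intervals (95%) cover the sampling of reads.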

Additional observations from a re-analysis of the deposited data

Results flagged for a closer look

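In the groups of 4 libraries of a population, 3 of 40 member groups had a library far from the other 3. The rule used flags about 1 group in 20 for independent replicates, which these libraries of different strains and genotypes are not. The groups also share libraries, so 3 of 40 is not shown to exceed chance. Tlr2 was at 490.7 CPM and Tlr4 at 135.3 CPM in the BALB/c Ift88Orpk Ly6Chi library, and Tlr6 at 212.0 CPM in the BALB/c Ift88Orpk neutrophil library, each the highest of its population. The Ift88Orpk effect on Tlr2 over the leukocytes differed between strains by 1.07 ± 0.20 log2 units (edgeR quasi-likelihood test, adjusted p = 0.0249). The ratio of Ift88Orpk to wild type for the X-linked Tlr13 was below 1 in 4 of 4 populations of C57BL/6, at most 0.9326, and above 1 in 4 of 4 populations of BALB/c, at least 1.008. That lowest BALB/c ratio, in Ly6Clo cells, had a counting interval of 0.965 to 1.05, which spans 1. The BALB/c DBA-sorted ratio of 4.1 comes from the library with the raised leukocyte markers given above. How many of all genes show such a pattern was not counted. Over the leukocytes the difference between the strains for Tlr13 was 0.53 ± 0.21 log2 units with an adjusted p of 0.432 (edgeR), and over all 4 populations it was not tested. Xist levels also ran in opposite directions between the strains, except in BALB/c neutrophils, and their part in the Tlr13 ratios was not tested.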

How the results depend on the processing

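Of 540 recomputed fold changes between populations 506 kept their direction and their side of the threshold, 23 missed the threshold and 11 changed sign. All 11 belonged to members that were not called. In neutrophils against Ly6Chi cells Tlr3 came to -0.9017 to 0.051 and Tlr1 to -0.70 to 0.0197 with a combination left out, and Tlr1 to 0.13 without the block. Against Ly6Clo cells Tlr1 came to -0.57 to 0.29 with a combination left out and 0.42 without the block. In Ly6Clo against DBA-sorted cells Tlr4 came to -0.0525 to 0.26 and Tlr5 to -0.41 to 0.54 with a combination left out, and Tlr5 to -0.13 without the block and -0.0027 in the fit of 16 libraries. Genes called between Ly6Chi and Ly6Clo cells fell from 4075 to 1861 without the block and to 1444, with 2 members, in the fit of 16 libraries. The cause of these changes was not tested.

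For genotype within a population DESeq2 called 83 genes in DBA-sorted cells, 3 in Ly6Chi cells, 11 in Ly6Clo cells and 26 in neutrophils, with 1 member. In DBA-sorted cells leaving out a library gave 0 to 48 genes and 0 to 2 members, and the fit of 4 libraries gave 1 gene. For strain DESeq2 called 486, 517, 394 and 928 genes, with 2 members in neutrophils. Without a filter there were 124 genes in Ly6Chi cells, 103 in Ly6Clo cells and 1 member in neutrophils. Leaving out a library gave 4 to 11 genes in Ly6Chi cells, 5 to 7 in Ly6Clo cells and 123 to 133 in neutrophils. The fit of 4 libraries gave 359, 158 and 149 genes there, and 0 members in DBA-sorted cells.

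Over C57BL/6 leukocytes 312 genes and 1 member were called without a filter, 96 genes by DESeq2 and 14 to 29 with a population left out. In BALB/c these were 1455 genes and 4 members, 1123 genes, and 295 to 1113 genes with 0 to 4 members. The difference had 815 genes and 2 members, 545 genes, and 0 to 1 members. Of 40 shares of the family 11 moved by over 1 SD with coding length. In the population pairs libraries of equal strain and genotype were paired as blocks. Without this pairing 5 calls were lost, those of Tlr2, Tlr4 and Tlr6 between macrophage types, Tlr3 in neutrophils against Ly6Clo cells (adjusted p = 0.0525) and Tlr6 in Ly6Clo against DBA-sorted cells (0.0581).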
